A study of Mus musculus with 6 samples.

Results

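The genes described here build and regulate the actin cytoskeleton and its contractile machinery: the 6 actins, the tropomyosins, calponins and transgelins that sit on actin filaments, the chains of myosin II, filament crosslinkers, the proteins that tie filaments to adhesions and to the plasma membrane, factors that turn filaments over, and SRF, a transcription factor of many of these genes. Members were taken by gene symbol from a list of 49 symbols. All 49 were present in the deposited table, on 50 of its 24191 rows, because GENCODE M21 gives the symbol Myl12b to 2 overlapping identifiers. The list was drawn up with results of the same knockout against wild-type comparison known. Calls and counts for the list are therefore a description of these genes, and nothing is read from how many of them changed.

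The libraries were made from polyA RNA of J1 cells, an established line of mouse embryonic stem cells, with 3 libraries from Mettl5 -/- cells (called Mettl5 knockout below) and 3 from wild-type (WT) cells. All cells of both genotypes had been kept for 7 days in serum and LIF, the cytokine that holds mouse embryonic stem cells in the undifferentiated state. METTL5 is the methyltransferase of an adenosine in 18S ribosomal RNA. The sources used here do not say how the gene was disrupted, how many clones were used or whether replicates were separate cultures, so the spread between libraries may be technical.

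Actin is made as a monomer that assembles into filaments. Beta- and gamma-actin (Actb, Actg1) are the cytoplasmic forms found in nearly every cell, while Acta1, Acta2, Actc1 and Actg2 encode the actins of skeletal, vascular smooth, cardiac and enteric smooth muscle. SRF binds a sequence called the CArG box, and its cofactors of the MRTF family are held in the cytoplasm by actin monomers and released when monomers are used up, which links filament assembly to transcription of actin and its binding proteins. In pluripotent cells the muscle forms are usually low.

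The CArG box is a 10-letter motif with a core of 6 letters that are A or T, and it reads as a CArG box on both strands. It was searched for in RefSeq promoter windows of 300 bases (GRCm38.p6, 250 before and 50 after each annotated start), which the table held for 46 of the 49 symbols. It was in at least 1 window of 11 of these 46 genes (23.9%), against 488 of 27025 genes in the whole promoter table (1.81%), or 20.7% against 1.63% of windows. Members were picked by symbol and not by motif, but the list holds known SRF targets and Srf itself. The higher share of boxes is therefore partly built into the choice of genes and is given as a description. Each line gives the bases around a match, 5′ to 3′ on the strand of the gene, with the box in capitals.
Acta1 (chr8:123894814-123894873, minus strand): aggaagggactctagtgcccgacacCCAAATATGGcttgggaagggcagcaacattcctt
Actc1 (chr2:114052888-114052947, minus strand): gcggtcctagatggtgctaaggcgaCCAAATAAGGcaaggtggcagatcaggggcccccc
Actg1 (chr11:120348551-120348610, minus strand): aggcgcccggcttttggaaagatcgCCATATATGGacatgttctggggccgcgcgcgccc
Cnn2 (chr10:79988519-79988578, plus strand): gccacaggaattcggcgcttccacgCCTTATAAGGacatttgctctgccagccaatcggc
Myl9 (chr2:156775278-156775337, plus strand): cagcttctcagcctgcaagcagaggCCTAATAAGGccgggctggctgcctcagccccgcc
Myl6 (chr10:128493025-128493084, minus strand): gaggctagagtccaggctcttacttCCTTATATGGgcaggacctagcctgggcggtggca
Vcl (chr14:20929148-20929205, plus strand): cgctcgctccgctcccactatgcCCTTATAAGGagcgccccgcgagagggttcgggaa
Fhl2 (chr1:43196823-43196882, minus strand): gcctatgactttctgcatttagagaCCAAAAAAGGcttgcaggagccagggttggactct
Filip1l (chr16:57549155-57549214, plus strand): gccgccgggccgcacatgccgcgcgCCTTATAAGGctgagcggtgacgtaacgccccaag
Srf, upstream box (chr17:46556210-46556269, minus strand): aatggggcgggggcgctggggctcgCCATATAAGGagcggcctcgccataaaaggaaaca
Srf, downstream box (chr17:46556190-46556249, minus strand): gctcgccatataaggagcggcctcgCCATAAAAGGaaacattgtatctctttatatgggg
Fhl1 (chrX:56779556-56779615, plus strand): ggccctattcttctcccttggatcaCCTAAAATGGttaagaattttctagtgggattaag
Fhl2 has a second annotated start with a box in its window too. The boxes lay between 227 and 31 bases before the start, as the map of box positions shows. A match is a description of letters, not evidence of binding.

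Acta2 had no strict box in its window but held a pair of matches in which 1 core letter is neither A nor T, printed here because Acta2 is the member with the highest fold change.
Acta2, upstream match (chr19:34255423-34255482, minus strand): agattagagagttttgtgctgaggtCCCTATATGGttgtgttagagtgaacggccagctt
Acta2, downstream match (chr19:34255374-34255432, minus strand): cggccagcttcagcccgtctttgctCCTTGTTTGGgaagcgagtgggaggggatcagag
Such relaxed matches were in 9 of 46 members (19.6%) and in 9.69% of all genes in the promoter table. The hexamer CATTCC, which TEAD factors are known to bind and which was counted on both strands, was in 15 of 46 members (32.6%) and in 16.6% of all genes. It overlapped no CArG box in the members, and Acta1 and Vcl held both motifs. TATAAA, counted on the strand of the gene, was in 4 members (8.7%) and in 9.77% of all genes. Among genes of the promoter table that were also tested for expression, its share was 6.79%. Actb, Actg2 and Tagln were not in the promoter table.

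**Figure D1:**
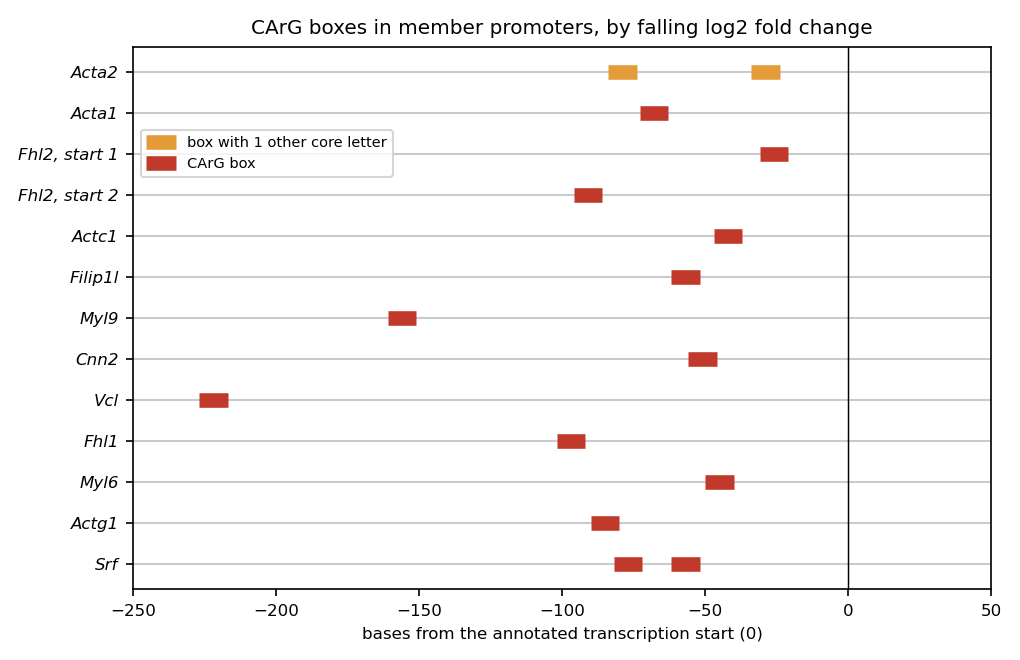
Positions of CArG boxes (red) and of the relaxed matches of Acta2 (orange) in bases from the annotated transcription start, for the 12 genes whose sequences are printed, ordered by log2 fold change. Most boxes lie within 102 bases before the start, and those of Myl9 and Vcl lie farther out, at -161 and -227.

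Levels below are on the TPM scale, the authors' a per-length abundance (TPM) after their own rescaling, which is per length and so can be compared between genes. Fold changes are differences of log2(scaled reads + 1), knockout minus WT, with their standard error (SE), from one limma fit to all 24183 genes that passed a low-value filter. A gene is called higher or lower when its Benjamini-Hochberg adjusted p over all those genes is under 0.05. The targeted gene Mettl5 (mm10 chromosome 2, 69871198 to 69885615) had levels of 3.65, 3.58 and 3.32 in knockout, against 50.3, 48.6 and 48.7 in WT libraries (log2 fold change -3.73, SE 0.0522, limma adjusted p 5.4e-11). The pluripotency factors Pou5f1 and Nanog averaged 1330 and 157 in knockout and 1498 and 158 in WT libraries, and both were present in all 6 libraries. Pou5f1 was called lower by a small amount (log2 fold change -0.09, SE 0.0317, limma adjusted p 0.0343), and Nanog was not called. Other markers of embryonic stem cells were called lower in the knockout, with log2 fold changes of -1.24 for Zfp42, -1.05 for Klf4, -0.88 for Esrrb, -0.58 for Sox2 and -0.52 for Utf1, while Dppa5a was called higher (0.31). Scaled reads summed to 51500000 to 51830000 in knockout and 46077000 to 46541000 in WT libraries, and rescaling to equal totals put the median log2 fold change of all genes at -0.15, where it was 0.00 without rescaling.

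Knockout cells had more RNA of nearly every gene in the list. Of 50 rows, all of which passed the low-value filter, 48 were called higher, 1 was called lower (Mylk) and 1 was not called (Synpo2), where 33.6% of all tested genes were called higher and 28.9% lower. The median log2 fold change of the members was 1.66 and that of all tested genes 0.00, and 33 members had a called rise of at least 1 on the log2 scale, a size reached by 11.4% of all genes. The same 48 rows had every knockout library above every WT library on the TPM scale, which held for 32.5% of all tested genes. Together the members made up 1.59%, 1.61% and 1.60% of the TPM scale in the knockout libraries and 0.726%, 0.712% and 0.726% in the WT libraries. The list was chosen on this contrast, so these counts are not set against the background as a result. The plot of fold changes by role shows that the size of the change differed widely within each role.

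**Figure D2:**
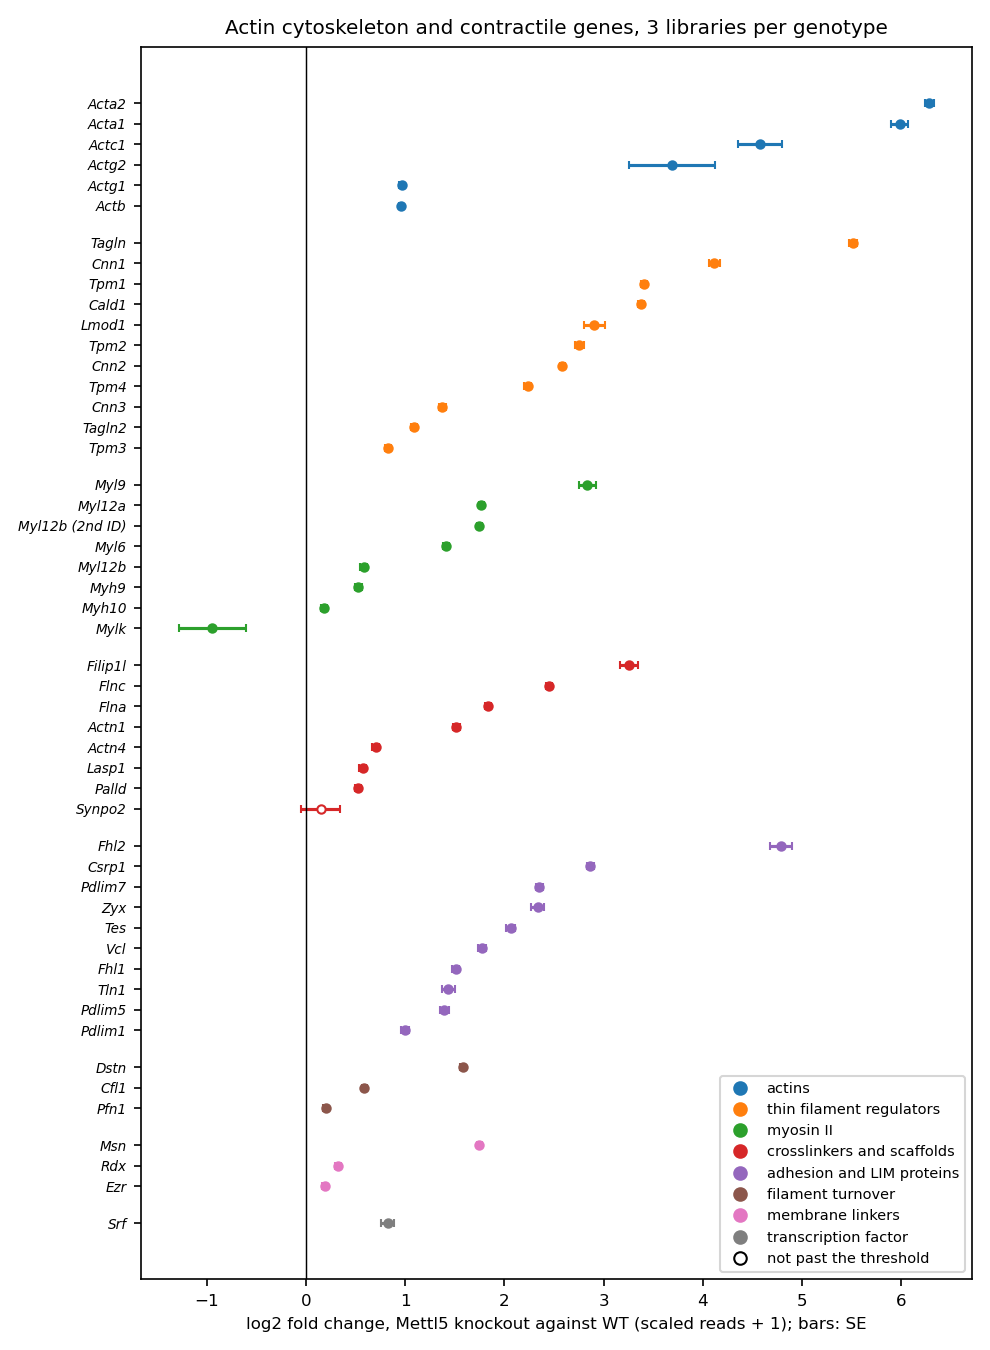
Log2 fold change (knockout against WT, scaled reads + 1) of each member with its SE as a bar, grouped by role and sorted within it. The values run from -0.95 for Mylk to 6.29 for Acta2, and in each of the actins, the turnover factors and the membrane linkers 1 or more members stand far from the others.

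The 6 actin genes all rose, the muscle forms by far more than the cytoplasmic ones. Acta2, smooth muscle alpha-actin (mm10 chromosome 19, 34241090 to 34255590), stood at 229, 234 and 239 (TPM scale) in knockout, against 3.31, 3.13 and 2.88 in WT libraries. Acta1, skeletal alpha-actin (chromosome 8, 123891769 to 123894751), was at 50.8, 46.4 and 47.7 in knockout and 0.696, 0.829 and 0.812 in WT libraries. No library of one genotype came near the range of the other, and the log2 fold changes were 6.29 for Acta2 (SE 0.0483, limma adjusted p 3.05e-12) and 5.99 for Acta1 (SE 0.0817, limma adjusted p 4.67e-11).

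The other muscle actins were low in both genotypes. Actc1, cardiac actin, was at 2.98, 2.97 and 3.11 in knockout and 0.127, 0.129 and 0.0795 in WT libraries on the TPM scale. Actg2, the enteric form, was at 1.56, 1.36 and 1.74 in knockout and 0.155, 0.0304 and 0.160 in WT libraries. The groups did not overlap for either gene, but WT replicate 2 of Actg2 lay well under the other WT libraries. Their log2 fold changes, 4.58 (SE 0.219) and 3.69 (SE 0.437), rest on few WT reads: with a pseudocount of 5 they were 3.84 and 2.80.

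The cytoplasmic actins carried most of the actin RNA in both genotypes. Actb was at 1868, 1859.5 and 1873 in knockout and 1023, 995 and 1004 in WT libraries on the TPM scale, and Actg1 at 2338, 2293 and 2341 in knockout and 1258, 1222 and 1261 in WT libraries. Both were higher in every knockout library, with log2 fold changes of 0.96 (SE 0.0222) and 0.97 (SE 0.0247) and limma adjusted p-values of 1.1e-09 and 2e-09. Actg1 stayed above Actb in all 6 libraries. Summed over the 6 genes, actin RNA was 4478 ± 35.7 (TPM scale) in knockout and 2258 ± 33.1 in WT libraries (SD, n = 3 each), a ratio of 1.98. The muscle forms together made up 6.33%, 6.41% and 6.47% of that sum in the knockout libraries and 0.187%, 0.185% and 0.173% in the WT libraries, most of it Acta2.

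The actin messages are alike enough that the assignment of reads matters. Over the whole coding sequence (GENCODE M21 on GRCm38), Actb and Actg1 were 88.7% identical, the muscle actins 82.5% to 86.2% identical to one another, and muscle and cytoplasmic actins 81.5% to 84.8%. The last 63 coding bases, stop codon included, show the kind of differences that tell them apart. They are lined up without gaps and printed 5′ to 3′, with capitals at bases that differ from Actb.
Acta1 (chr8:123892009-123892071, minus strand): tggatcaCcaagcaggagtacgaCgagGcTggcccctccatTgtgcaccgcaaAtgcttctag
Acta2 (chr19:34241667-34241729, minus strand): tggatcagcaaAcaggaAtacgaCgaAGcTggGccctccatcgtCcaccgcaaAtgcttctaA
Actc1 (chr2:114047466-114047528, minus strand): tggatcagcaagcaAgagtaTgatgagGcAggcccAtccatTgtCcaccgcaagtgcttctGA
Actg2 (chr6:83512985-83513047, minus strand): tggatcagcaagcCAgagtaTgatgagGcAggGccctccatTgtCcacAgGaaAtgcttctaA
Actb (chr5:142903798-142903860, minus strand): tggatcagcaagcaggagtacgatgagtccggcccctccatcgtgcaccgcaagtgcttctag
Actg1 (chr11:120346390-120346452, minus strand): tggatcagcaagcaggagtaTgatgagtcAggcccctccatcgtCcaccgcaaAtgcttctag
The muscle genes differ from Actb at 6 to 12 of these 63 bases, and Actg1 at 4. Of all 31-letter words in its annotated transcripts, 98.6% were found in no other annotated gene for Acta2, 95.9% for Acta1, 99.2% for Actc1 and 98.8% for Actg2. The cytoplasmic genes had fewer such words, 76.4% for Actb and 59.8% for Actg1. The gene that held the most Actg1 words (36.6%), the processed pseudogene Gm12715, was at 1.45, 1.07 and 2.08 in knockout and 0.488, 0.718 and 0.441 in WT libraries on the TPM scale, far under Actg1 itself.

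**Figure D3:**
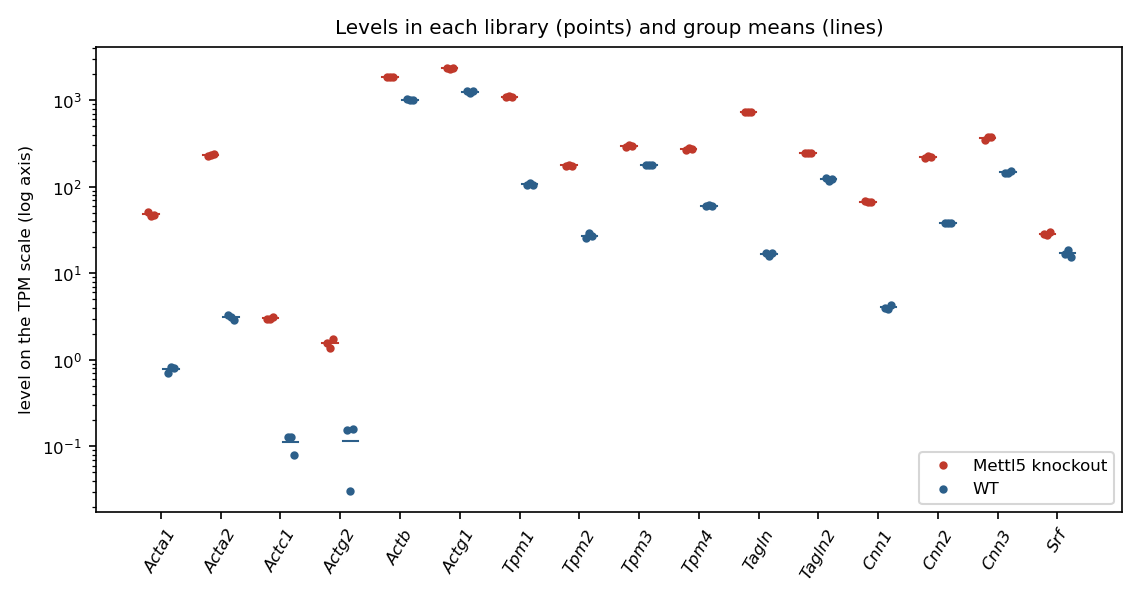
Level of the actins, tropomyosins, transgelins, calponins and Srf in each library on the TPM scale (log axis), with knockout libraries in red, WT libraries in blue and the mean of 3 libraries as a line. Every gene shown has its 3 knockout points above its 3 WT points, and Acta2, Acta1 and Tagln have the highest ratios of knockout to WT means among the genes shown, at 75.3, 62.0 and 43.8.

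All 11 genes of filament-binding regulators were higher in the knockout. Tagln, which encodes transgelin (SM22), an early smooth muscle protein that binds filaments, was at 732, 736 and 727 in knockout and 17.1, 15.7 and 17.3 in WT libraries on the TPM scale. It rose by 5.52 on the log2 scale (SE 0.0393, limma adjusted p 1.92e-12), and it stood 8th among the 50 members by level in knockout and 34th in WT cells. Its paralog Tagln2, the widely expressed form, was at 248, 246 and 247 in knockout and 125, 117 and 123 in WT libraries (log2 fold change 1.09, SE 0.0296). Tagln thus made up 74.8% ± 0.172 of the pair in knockout and 12.1% ± 0.266 in WT libraries (SD, n = 3 each). Of the 31-letter words of Tagln, 37.8% were in no other annotated gene and 58.3% were also in Gm48529, an antisense gene. Gm48529 was at 6.70, 6.81 and 6.46 in knockout and 0.332, 0.420 and 0.268 in WT libraries. Because the strand setting of the quantification is not given, reads of the 2 genes cannot be told apart in the shared stretch.

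The tropomyosins, coiled coils that lie along the filament and set which proteins may bind it, changed in proportion as well as in amount. Tpm1 was at 1078, 1106 and 1085 (TPM scale) in knockout and 105, 111 and 104 in WT libraries. Tpm2 was at 174, 178 and 176 in knockout and 25.4, 28.9 and 27.1 in WT libraries. Tpm4 was at 263, 281 and 274 in knockout and 59.8, 61.7 and 59.7 in WT libraries. These 3 rose by 3.41 (SE 0.0283), 2.75 (SE 0.0441) and 2.23 (SE 0.0305) on the log2 scale. Tpm3 was at 289, 306 and 298 in knockout and 176, 179 and 179 in WT libraries, a rise of 0.83 (SE 0.0313, limma adjusted p 2.49e-08). Tpm1 was the main tropomyosin of knockout cells, at 59.3% ± 0.319 of the family sum there, against 28.7% ± 0.442 in WT cells (SD, n = 3 each). Tpm3 made up 16.2% ± 0.174 in knockout cells and was the main form in WT cells, at 47.8% ± 0.644. The family sum was 1836 ± 32.5 in knockout and 372 ± 7.31 in WT libraries, a ratio of 4.93, larger than the ratio of 1.98 for the actins; no test was made of that difference. The table gives genes and not transcripts, so the muscle and non-muscle splice forms of Tpm1 cannot be separated.

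Calponins and caldesmon restrain the motor activity of myosin on actin. Cnn1, the smooth muscle calponin, was at 67.7, 66.2 and 66.6 in knockout and 3.94, 3.82 and 4.31 in WT libraries on the TPM scale, a log2 fold change of 4.12 (SE 0.0556, limma adjusted p 4.53e-11). Cnn2 and Cnn3, the forms of non-muscle cells, rose by 2.58 and 1.37 on the log2 scale, and Cnn3 remained the most abundant calponin in both genotypes, at 56.0% ± 0.936 of the family sum in knockout and 77.8% ± 0.442 in WT libraries (SD, n = 3 each). Cald1, caldesmon, averaged 227 ± 1.25 in knockout and 22.8 ± 0.438 in WT libraries (log2 fold change 3.38, SE 0.0273). Lmod1, a leiomodin that nucleates filaments in smooth muscle, rose by 2.91 but stayed low, at 2.40 ± 0.132 in knockout and 0.328 ± 0.0394 in WT libraries.

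**Figure D4:**
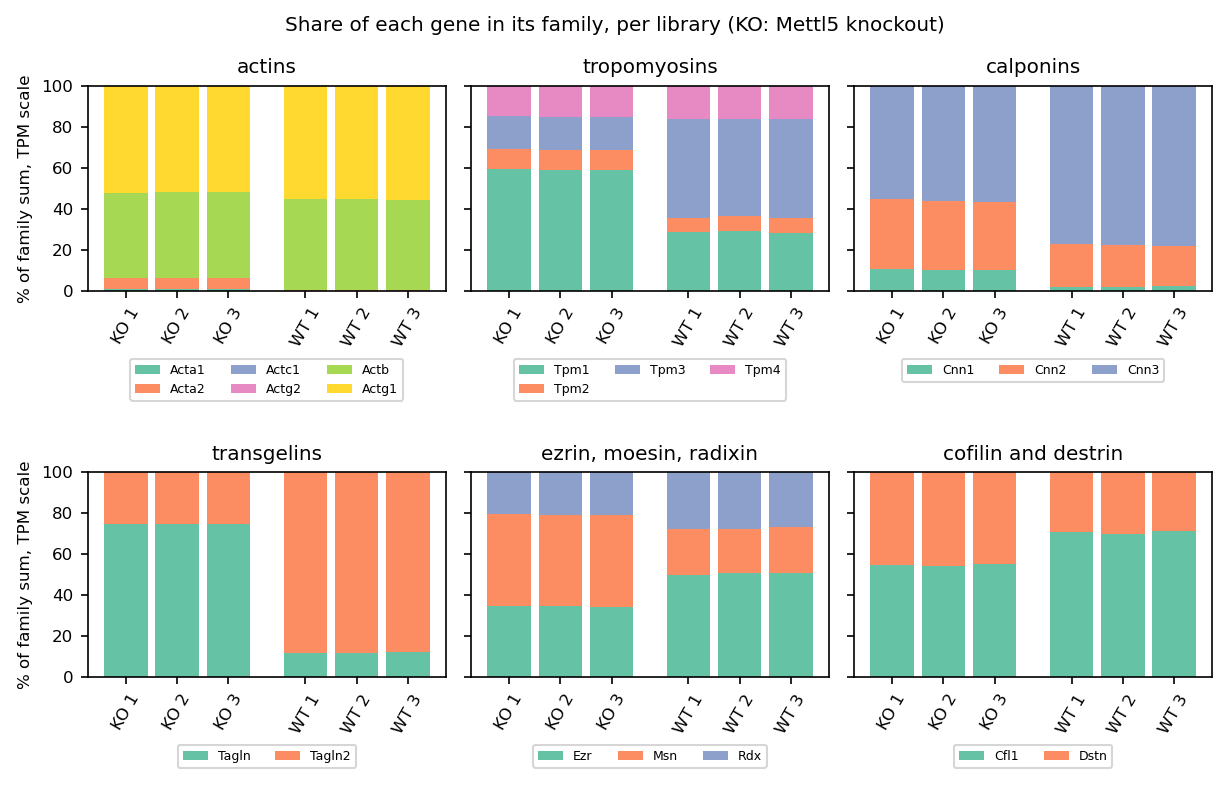
Share of each gene in the summed TPM scale of its family, in %, for each library, with the 3 knockout libraries left of the 3 WT libraries in each panel. Within a genotype the bars are nearly alike, while Tpm1 replaces Tpm3 as the main tropomyosin, Tagln replaces Tagln2 and Msn replaces Ezr in the knockout libraries.

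Myosin II is built of heavy chains, essential light chains and regulatory light chains. Of 8 rows, 7 were called higher and 1 lower. Myl9, the regulatory light chain of smooth muscle, was at 35.3, 38.0 and 37.5 (TPM scale) in knockout and 6.20, 4.99 and 5.28 in WT libraries (log2 fold change 2.84, SE 0.0873, limma adjusted p 6.82e-09). Myl12a, a non-muscle regulatory light chain, was at 539.8, 530.0 and 536 in knockout and 163, 165 and 166 in WT libraries (log2 fold change 1.77, SE 0.0241). The groups of both genes were far apart. Myl12b, its neighbour on chromosome 17, averaged 389.6 ± 10.5 in knockout and 273 ± 13.2 in WT libraries under its main identifier (log2 fold change 0.58, SE 0.0368). The second Myl12b identifier spans parts of both genes, had only 2.84% of its 31-letter words to itself, and was at 447, 457 and 445 in knockout and 139.6, 141 and 142 in WT libraries. How reads were split among these 3 rows is uncertain. Myl6, the essential light chain, averaged 2012 ± 48.1 in knockout and 798 ± 13.5 in WT libraries (log2 fold change 1.41, SE 0.0272), and in knockout libraries it stood above Actb.

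The list holds the heavy chains Myh9 and Myh10. Myh9, the heavy chain of myosin IIA, averaged 66.4 ± 1.22 (TPM scale) in knockout and 48.0 ± 1.27 in WT libraries (log2 fold change 0.53, SE 0.0307). Myh10, that of myosin IIB, was at 33.4, 33.5 and 33.8 in knockout and 31.3, 30.5 and 30.7 in WT libraries. The Myh10 groups did not overlap, but its log2 fold change of 0.18 (SE 0.0282, limma adjusted p 0.000416) shrank to 0.02 with libraries rescaled to equal totals, where it was no longer called (limma adjusted p 0.546). Myh14, the heavy chain of myosin IIC, is outside the list and averaged 3.06 in knockout and 5.79 in WT libraries (log2 fold change -0.87, limma adjusted p 1.94e-07). Mylk, the kinase that phosphorylates the regulatory light chains, was barely detected, at 0.0581, 0.0678 and 0.0558 in knockout and 0.150, 0.171 and 0.0989 in WT libraries. Its log2 fold change of -0.95 (SE 0.335) had a limma adjusted p of 0.0337, and that call was lost when any single library other than WT replicate 3 was left out (adjusted p 0.0562 to 0.114).

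Among crosslinkers and scaffolds, 7 of 8 genes were called higher. Filip1l, a filamin-interacting protein, was at 4.19, 4.19 and 4.18 (TPM scale) in knockout and 0.428, 0.511 and 0.409 in WT libraries (log2 fold change 3.26, SE 0.0914). Flnc, the filamin of striated muscle, was at 19.8, 19.4 and 19.4 in knockout and 3.58, 3.79 and 3.73 in WT libraries (log2 fold change 2.45, SE 0.031). Flna, the widely expressed filamin, was at 199, 197 and 196 in knockout and 59.3, 56.7 and 58.3 in WT libraries (log2 fold change 1.83, SE 0.0282). All 3 genes were clearly separated by genotype, and Flna supplied most of the RNA of this pair of filamins, 91.0% ± 0.0587 in knockout and 94.0% ± 0.287 in WT libraries (SD, n = 3 each). The alpha-actinins, which bundle filaments, rose by 1.51 (Actn1) and 0.70 (Actn4) on the log2 scale. Lasp1, an adhesion scaffold, rose by 0.57. Palld, which encodes the scaffold palladin, was at 23.0, 22.6 and 22.3 in knockout and 16.4, 16.3 and 16.2 in WT libraries (log2 fold change 0.52, SE 0.029). Synpo2, a scaffold of muscle, was at 0.562, 0.710 and 0.704 in knockout and 0.658, 0.441 and 0.784 in WT libraries. Its groups overlapped and it was not called (log2 fold change 0.15, SE 0.197, limma adjusted p 0.535).

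All 10 genes of adhesion and LIM-domain proteins were called higher, by 1.00 to 4.79 on the log2 scale. Fhl2, a LIM protein that binds SRF and is itself a known SRF target, was at 16.2, 16.6 and 16.6 (TPM scale) in knockout and 0.573, 0.531 and 0.730 in WT libraries (log2 fold change 4.79, SE 0.113, limma adjusted p 1.19e-09). Csrp1, a LIM protein of smooth muscle, was at 236, 218 and 232 in knockout and 33.8, 31.5 and 32.3 in WT libraries (log2 fold change 2.87, SE 0.0374). Pdlim7, a PDZ and LIM adaptor, was at 139, 136 and 135 in knockout and 26.9, 28.7 and 28.5 in WT libraries (log2 fold change 2.35, SE 0.035). Knockout libraries stood above WT libraries in each of them. The relatives of these genes moved less. Fhl1 rose by 1.51, Pdlim5 by 1.39 and Pdlim1 by 1.00. Pdlim1 was at 116, 109 and 111 in knockout and 57.5, 58.8 and 61.4 in WT libraries, and Pdlim5 at 37.1, 38.9 and 40.2 in knockout and 15.3, 14.6 and 15.9 in WT libraries. The focal adhesion genes Zyx, Tes, Vcl and Tln1, which encode zyxin, testin, vinculin and talin, rose by 2.34, 2.07, 1.77 and 1.44. Vcl shared 25.3% of its words with Ap3m1, which was itself at 74.3, 77.4 and 75.4 in knockout and 63.9, 66.7 and 63.7 in WT libraries.

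Filament turnover depends on cofilin (Cfl1) and destrin (Dstn), which sever and depolymerize filaments, and on profilin (Pfn1), which feeds monomers to growing ends. Dstn was at 832, 855 and 837 (TPM scale) in knockout and 288, 299.8 and 288 in WT libraries (log2 fold change 1.58, SE 0.0257, limma adjusted p 1.32e-10). Cfl1 was at 1010.0, 1021 and 1029.6 in knockout and 708, 693 and 718 in WT libraries (log2 fold change 0.59, SE 0.0237). Dstn thus formed 45.2% ± 0.367 of the cofilin and destrin sum in knockout and 29.3% ± 0.816 in WT libraries (SD, n = 3 each). Pfn1 was at 785, 802 and 803 in knockout and 716, 729 and 743 in WT libraries. The Pfn1 groups were separate, but its log2 fold change of 0.20 (SE 0.0267) became 0.04 with equal totals, where it was not called (limma adjusted p 0.167).

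Ezrin, radixin and moesin link filaments to the plasma membrane. Msn was at 122, 124 and 124 (TPM scale) in knockout and 38.3, 37.6 and 38.7 in WT libraries (log2 fold change 1.75, SE 0.025, limma adjusted p 6.33e-11). Ezr, the epithelial member, was at 95.3, 98.2 and 95.1 in knockout and 85.003, 89.4 and 88.9 in WT libraries. Rdx was at 56.0, 58.9 and 57.7 in knockout and 47.3, 48.98 and 46.7 in WT libraries. Only Msn of these 3 changed by more than 1 on the log2 scale. Rdx rose by 0.32 (SE 0.0294) and Ezr by 0.19 (SE 0.0291), and the Ezr call was lost with equal totals (0.03, limma adjusted p 0.363). Moesin supplied 44.5% ± 0.353 of the RNA of this family in knockout and 22.0% ± 0.558 in WT libraries, while ezrin supplied 34.7% ± 0.342 in knockout and 50.5% ± 0.639 in WT libraries (SD, n = 3 each).

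Srf itself was at 28.3, 27.6 and 29.7 (TPM scale) in knockout and 16.9, 18.7 and 15.6 in WT libraries. The groups did not overlap, and Srf rose by 0.82 on the log2 scale (SE 0.0664, limma adjusted p 4.05e-06), smaller than that of 37 of the other rows. Its promoter window held both boxes printed above. The 11 members with a CArG box were all called higher, with a median log2 fold change of 2.58 and a range of 0.82 to 5.99. Of the 35 members with a window but no strict box, all except Mylk and Synpo2 were called higher as well. These 35 had a median of 1.44 and a range of -0.95 to 6.29, so the ranges overlapped widely. Outside the list, 236 tested genes had a box in their window, of which 90 (38.1%) were called higher and 61 (25.8%) lower. Of all tested genes, 33.6% were called higher and 28.9% lower, but these include genes without a promoter window. Shares among tested genes with a window and no box were not worked out, so the sets are unlike. No test of differences between genes with and without a box was made.

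**Figure D5:**
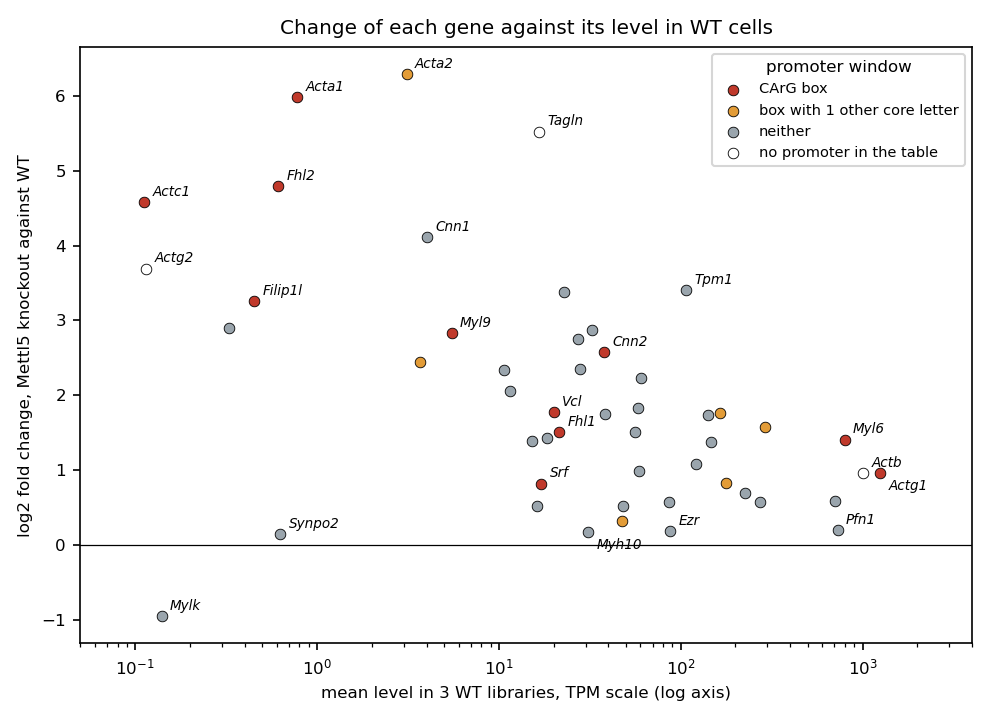
Log2 fold change of each member (knockout against WT) by its mean level in WT libraries on the TPM scale (log axis), coloured by whether its promoter window holds a CArG box. Genes with a box are found at all levels, Acta1, Fhl2 and Actc1 lie at the upper left, and Actb and Actg1 at the right with values near 1.

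By the median, members that were low in WT cells rose most. The 12 under 10 on the TPM scale in WT cells had a median log2 fold change of 3.48, the 24 from 10 to 100 one of 1.63 and the 14 over 100 one of 1.03. Of the 12 low members, 10 were called higher, 1 lower (Mylk) and 1 was not called (Synpo2). All members of the 24 and of the 14 were called higher. Across the 50 rows, log2 fold change and log2 WT level had Pearson and Spearman correlations of -0.474 and -0.478, given as a description because all points come from the same 6 libraries and the WT level enters both measures. In order of level, Actg1, Myl6 and Actb led in knockout cells and Actg1, Actb and Myl6 in WT cells, and Tpm1 stood 4th in knockout and 14th in WT cells. Replicates were close, with a median coefficient of variation over the members of 1.81% in knockout and 3.32% in WT libraries. The 12 members on chromosomes 6, 8 and 11 were all called higher (median 2.15), as were 36 of the 38 on other chromosomes (median 1.55). Shares of calls among all genes of each chromosome were not worked out. Centring log2 values per chromosome moved Acta1 (chromosome 8) from 5.99 to 6.35 and Acta2 (chromosome 19) from 6.29 to 6.19. Genes of chromosome 8 as a group thus lay lower in the knockout, and the cause was not tested.

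Other genes of the actin system, listed by their roles with earlier results of these data known, held calls in both directions. For these and the lists that follow, the shares over all tested genes were 33.6% called higher and 28.9% called lower. No list was tested against these shares, and none is compared with the members, which were chosen on this contrast. Of 31 genes for filament nucleation, 20 were called higher and 6 lower (median log2 fold change 0.32). Arpc5, a subunit of the ARP2/3 complex, rose by 1.52 and the formin gene Daam1 by 1.12, while Fhod3, a formin of muscle, fell by 1.95. Of 24 genes for turnover and capping, 16 were called higher and 6 lower (median 0.51), with Gsn, the severing protein gelsolin, at 3.99, Tmsb4x, the monomer-binding thymosin beta 4, at 1.77 and the cofilin cofactor Wdr1 at 1.68. Tmsb4x was abundant, at a mean of 1770.5 (TPM scale) in knockout and 545 in WT libraries. Among 8 genes for SRF cofactors and related proteins, 5 were called higher and the other 3 (Elk1, Scai and Phactr1) were not called (median 0.35). Mrtfa and Mrtfb rose by 0.36 and 0.48, and the ternary complex factors Elk3 and Elk4 by 1.81 and 0.34. Myocd, the cofactor of smooth and cardiac muscle, rose by 2.55 but averaged 0.448 (TPM scale) in knockout and 0.0851 in WT libraries.

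Of 14 further crosslinker and spectrin genes, 9 were called higher and 4 lower (median 0.40), with Pls3 (plastin) and Marcks higher by 2.37 and 1.83. The genes called lower were Pls1, Eps8, Espn and Vil1, which encode proteins of microvilli and related protrusions, at -0.63, -0.84, -0.56 and -1.38. Of 10 other myosin genes, 3 were called higher and 6 lower (median -0.23), with a summed level of 197 to 199 (TPM scale) in knockout and 191 to 196 in WT libraries. Myo1e and Myo1c rose by 0.95 and 0.90, and Myo18a fell by 0.84. Myo10 was called higher by only 0.12, and its groups overlapped on the TPM scale. Rescaling to equal totals put the median log2 fold change of all genes at -0.15, and the Myo10 call under that setting is not given.

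Muscle genes outside the list did not move as one. Of 10 smooth muscle markers, 6 were called higher and 1 lower (median 0.59). The summed level of the 10 was 49.9 to 50.4 (TPM scale) in knockout and 39.1 to 41.7 in WT libraries. Averages of 5 of them were under 1 in both genotypes, among these Myocd, Kcnmb1 and Rgs5, which were called higher. Myh11, the heavy chain that defines mature smooth muscle, averaged 0.0966 in knockout and 0.0884 in WT libraries and was not called (limma adjusted p 0.56). Smtn (smoothelin) and Itga8 (an integrin chain) rose by 0.64 and 3.43, and Des (desmin) fell by 0.63. Of 21 listed striated muscle markers, 6 were called higher and 10 lower (median -0.42). The summed level of the 21 was 39.5 to 42.6 in knockout and 67.1 to 69.9 in WT libraries. Averages of 9 of them were under 1 in both genotypes. These include Ttn, Tnnt2, Nppa and Nkx2-5, called higher, and Myog and Ckm, called lower. Myh3 and Myl4 fell by 3.23 and 2.51, whereas Tnnc1 rose by 2.93.

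Most fibroblast markers and all epithelial markers listed were higher in the knockout, like most members. Of 16 fibroblast markers, which feeder cells would carry, 14 were called higher and 2 lower (median 2.93). The sum of the 16 was 340.3 to 354 (TPM scale) in knockout and 63.5 to 73.5 in WT libraries, most of it Vim. Averages of 5 of those called higher (Lum, Dcn, Postn, Prrx1 and Fap) were under 1 in both genotypes. The collagens Col1a1, Col1a2 and Col3a1 averaged 17.7, 2.96 and 3.84 in knockout and 0.694, 0.381 and 0.0979 in WT libraries, Pdgfra and Thy1 fell by 1.02 and 1.07, and no marker was at 0 in a whole group. All 10 epithelial markers were called higher (median 2.78), with a sum of 2234 to 2283 in knockout and 367 to 373 in WT libraries, led by the keratins Krt8 and Krt18. The smallest of these rises was 0.15 for Epcam, and its call with equal totals is not given. The part of any such cells in the values of the members was not tested, and in bulk RNA more cells of a kind and more RNA per cell cannot be told apart. Of 8 embryonic stem cell markers, 1 was called higher and 6 lower (median -0.55), with a sum of 4547 to 4995 in knockout and 4872 to 5269 in WT libraries.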

How the data were processed

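PolyA RNA of 6 libraries was read from a deposited table of 24191 Ensembl genes. The submitters' processing notes name kallisto, sleuth and mm10, while the sources used here leave out their versions, the annotation and the strand setting. Per the file headers, the authors deposited 2 signal columns, scaled reads per base and TPM. The first was not whole numbers, and its ratio to the second rose with exonic length (Pearson r 0.600 over 17949 genes), as reads and not reads per base would, so it is called scaled reads. The TPM signal deposited by the authors summed to 969840 to 1022470 per library, and is called the TPM scale. Original counts and depth are not known, so no counting intervals are given.

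Genotype came from sample titles. Symbols and positions came from GENCODE M21 (GRCm38), which held 23846 identifiers. Genotypes were compared in limma 3.58.1 under R 4.3.3 (trended variance, two-sided) on log2(scaled reads + 1), keeping 24183 genes whose mean reached 1, after a check on simulated data. A count test was not used because values are not counts. Members and lists were chosen with earlier results of these data known. Levels are given in every library for the actins, tropomyosins, Srf and, in each role, the 3 highest and 2 lowest fold changes; other lists name up to 3 genes of smallest p, and further genes named from them were chosen after their values were seen. Some results of these lists are not reported here. Alternatives were other pseudocounts, filters, the TPM column, equal totals, chromosome centring, a replicate block and leaving out each library. Identity of coding sequences was computed with Biopython 1.88, and tables and plots were made in Python 3.11.15 (numpy 2.4.6, pandas 2.3.3, matplotlib 3.10.9).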

Additional observations from a re-analysis of the deposited data

How the results depend on the processing

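Of the 50 rows, 48 stayed called higher under both other pseudocounts, under each filter, with the TPM column, with chromosome centring, with the replicate block and without any single library. With equal totals 45 were called higher; the 3 lost were Myh10, Pfn1 and Ezr. The count of members called lower was 1 (Mylk) and became 0 with a filter at a mean of 20 scaled reads, which removes Mylk from the test, and 0 with the replicate block (limma adjusted p 0.0508); leaving out single libraries gave 0 to 1. Synpo2, not called in any of these fits, turned sign with equal totals (-0.0060), with chromosome centring (-0.030) and without WT replicate 2; leaving out single libraries gave -0.082 to 0.33, and the cause was not tested. Over all genes, 8137 were called higher and 6998 lower, and 6309 and 9147 with equal totals, a share of higher calls of 53.8% and 40.8%. With a pseudocount of 5 the log2 fold changes of Actc1 and Actg2 were 3.84 and 2.80, and with the TPM column 3.89 and 3.00. Deviations of same-numbered libraries had correlations of -0.009, 0.038 and 0.044, so the numbers were not taken as pairs; the block changed no other member's call and gave 8183 higher and 6927 lower calls over all genes. True depth is not known, and members under about 1 on the TPM scale rest on few reads.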
